A study of Mus musculus with 6 samples.

Results

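Small leucine-rich proteoglycans were followed through muscle stem cells of young and adult mice. They were chosen by name, as the 10 genes Dcn, Bgn, Lum, Fmod, Ogn, Prelp, Aspn, Omd, Kera and Epyc, among 36373 genes with a probe on the array. Each had 1 probe. Of these genes, 7 were among the 32068 genes bright enough to be tested, and Aspn, Kera and Epyc were not.

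The cells were satellite cells, the stem cells that lie between a muscle fibre and its basal lamina. They were sorted by flow cytometry from skeletal muscle of male C57BL/6 mice as cells with integrin alpha7 and CD34 on their surface and without CD31, CD45, CD11b and Sca1. The Young group had 3 samples, of which replicates 1 and 3 came from mice of 3 months and replicate 2 from mice of 2 months. The Adult group had 3 samples from mice of 6 months. No genetic change or treatment is named for either group. The labels call the samples biological replicates but do not give the number of mice behind each, so the p-values measure the spread between these samples only. Each sample was read on 1 single-colour Agilent array after whole transcriptome amplification of its RNA.

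Small leucine-rich proteoglycans are secreted proteins built of leucine-rich repeats, most of which carry chondroitin, dermatan or keratan sulfate chains. They bind collagen fibrils and set how thick and how regularly spaced these become. Several also hold or present growth factors, among them members of the transforming growth factor beta family. In skeletal muscle they belong to the connective tissue around fibres, where fibroblasts are a main source, and decorin and biglycan are the members studied most.

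The probes are 60 bases long, and the files place them on mouse build mm9. The Bgn probe lies at chrX:70738554-70738613 on the plus strand and stands for transcript NM_007542. Its letters are shown because Bgn was the member that passed the test between the groups. One of its forward reading frames runs through it without a stop codon.

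Bgn probe: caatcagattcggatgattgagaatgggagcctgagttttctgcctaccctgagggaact

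The proteins of the family share repeats, so probes for different members could share letters. Over the 45 pairs of the 10 probes, the longest run of identical bases was 9, and for the Dcn and Bgn probes it was 7. The files place the probes of Dcn (chr10:96980233-96980292, NM_007833), Lum (chr10:97035210-97035269, NM_008524), Kera (chr10:97076230-97076289, NM_008438) and Epyc (chr10:97143965-97144024, NM_007884) on chromosome 10. Those of Aspn (chr13:49662479-49662538, NM_025711), Omd (chr13:49687847-49687906, NM_012050) and Ogn (chr13:49719549-49719608, NM_008760) lie on chromosome 13, and that of Fmod (chr1:135943998-135944057, NM_021355) on chromosome 1. All of these are on the plus strand. Exon and untranslated region annotation on mm9 was not used here.

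Promoter sequences from RefSeq on build GRCm38.p6 were at hand for 8 of the 10 genes, and those of Dcn and Lum were not used here. The 250 bases before the start of Bgn (chrX:73483351-73483600, plus strand) and of Fmod (chr1:134037004-134037253, plus strand) are shown side by side, as the member that differed between the groups and the member that varied most among the 6 arrays. Capitals mark GC boxes, matches to GGGCGG on either strand, and E-boxes, matches to CANNTG, in both.

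Bgn promoter: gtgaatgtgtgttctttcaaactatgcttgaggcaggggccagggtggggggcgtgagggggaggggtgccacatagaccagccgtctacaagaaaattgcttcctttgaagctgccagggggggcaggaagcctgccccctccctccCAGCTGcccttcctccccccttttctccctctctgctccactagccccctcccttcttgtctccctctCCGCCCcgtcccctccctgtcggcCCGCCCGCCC

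Fmod promoter: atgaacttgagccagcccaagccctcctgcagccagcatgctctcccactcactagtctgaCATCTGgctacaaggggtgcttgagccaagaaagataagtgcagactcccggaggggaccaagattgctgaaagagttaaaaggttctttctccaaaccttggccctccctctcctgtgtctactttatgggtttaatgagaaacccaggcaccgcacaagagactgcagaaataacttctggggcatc

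The Bgn stretch holds 1 E-box, CAGCTG, and 3 GC boxes, of which the last 2 overlap by 2 bases, and is 64.4% G or C. Among the 8 genes, Bgn was the one with a GC box in this window, a match found in 32.7% of 32851 promoters. The Fmod stretch holds 1 E-box, CATCTG, no GC box and no TATAAA, and is 51.2% G or C, against a median of 52.4% over all promoters. The E-box letters are common, with a match on either strand in 66.2% of promoters. TATAAA, present in 12.4% of promoters, occurred in the windows of Ogn and Aspn, with 2 matches each. Such matches describe letters and show nothing about binding.

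Values below are relative levels: the log2 processed signal of a probe minus the log2 of its array's 75th percentile, so that 0 is the brightness which 75% of probes do not exceed. They compare arrays for 1 probe and give no order between genes. The number of probes well above background was 41528 to 45926 on Young and 47554 to 49957 on Adult arrays. Over all genes tested, the median difference, Adult minus Young, was 0.30. With genes in 4 equal groups by level, it ran from 1.44 in the dimmest group to -0.31 in the brightest. Other scalings moved the overall median to between -0.24 and 0.45. Markers of the sorted cells, Pax7, Itga7 and Cd34, were well above background on all 6 arrays. So were the genes of the surface proteins used to remove other cells, Pecam1 (CD31), Ptprc (CD45), Itgam (CD11b) and Ly6a (Sca1).

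Of the 7 genes tested, 1 was lower in Adult, none was higher and 6 did not pass (limma, Benjamini-Hochberg adjusted p under 0.05). Over all genes tested, 28.5% were called, 8.44% as lower and 20.0% as higher in Adult. The median difference of the 7 was -0.48. It was negative under all 13 other settings of the processing, from -1.02 to -0.20. Of these, dropping the filter, the mean of probes, the variance model and the replicate block could not change it. Another setting held only 4 of the 7 genes. With each of the 6 arrays left out, the median was negative too and ranged from -0.67 to -0.18. Dcn, Bgn and Ogn belong to the brightest of the 4 groups by level, whose median difference was -0.31. Bgn was also the one of the 7 whose groups did not overlap, as those of 55.6% of all genes did not, 21.6% with Adult lower. A single call among 7 genes is too few to set against 28.5% in either direction or 8.44% lower. It says nothing particular about the family.

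**Figure D1:**
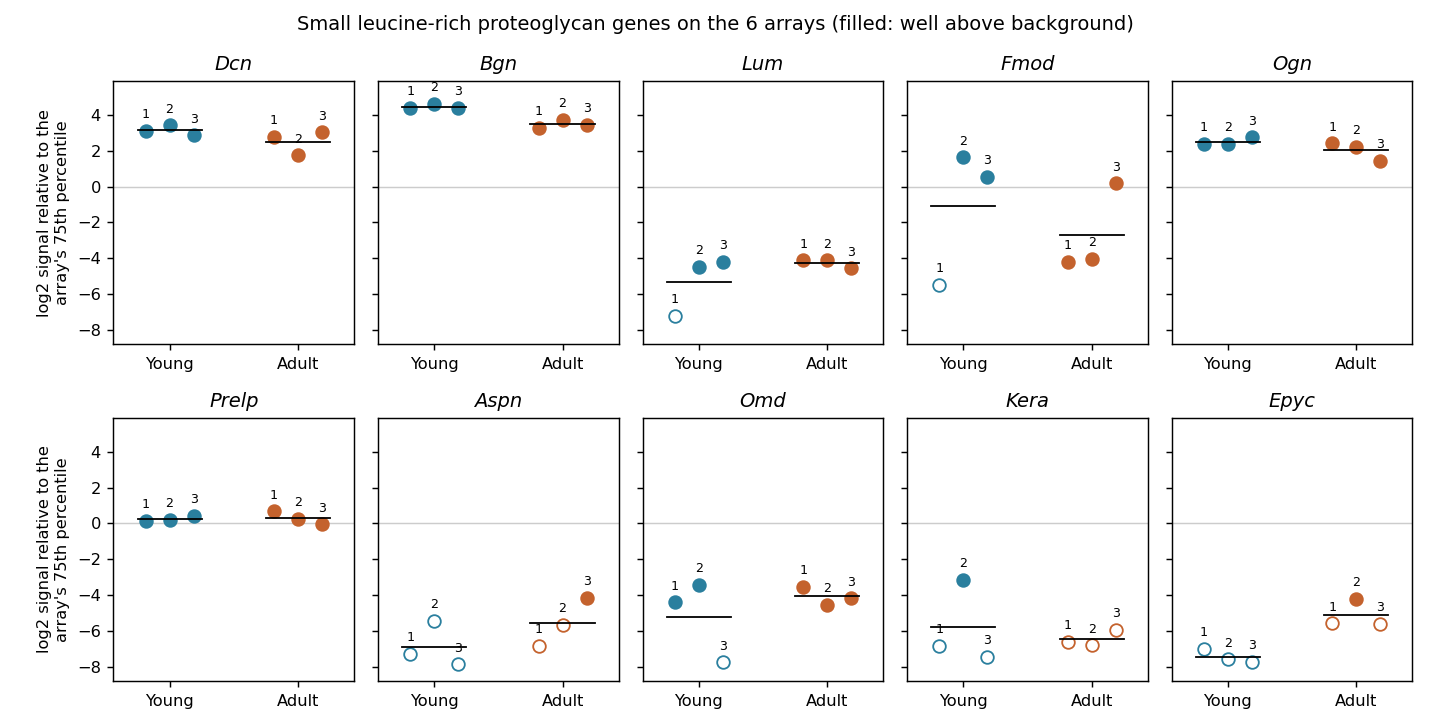
Relative level of each of the 10 genes (log2 signal relative to the array's 75th percentile, vertical axis) in Young and Adult samples, with the replicate number above each point. Filled points are well above background, open points are not, and bars are group means over 3 samples. Bgn separates the groups, Fmod spans at least 6.59 log2 units, and Kera is well above background in Young replicate 2 alone.

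Decorin, biglycan and asporin form the class I members. Decorin binds collagen near the fibril surface and holds transforming growth factor beta, and biglycan, its closest relative, also binds the dystrophin-associated complex of muscle fibres and Toll-like receptors. Bgn stood at 4.42, 4.61 and 4.39 in Young replicates 1, 2 and 3, and at 3.27, 3.75 and 3.44 in Adult replicates 1, 2 and 3. The lowest Young sample lay above the highest Adult sample, and the SD within either group was smaller than the difference between the group means. In processed signal the samples read 11820, 16290 and 16060 against 5199, 8337 and 5771. Bgn was therefore 1.99-fold lower in Adult, from 4.48 ± 0.12 to 3.49 ± 0.24 (SD, n = 3 each). The log2 difference was -0.99 ± 0.20 (SE), with a 95% interval of -1.48 to -0.50 and a limma adjusted p of 0.0272.

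The Bgn call rested on all 6 arrays. With any 1 array left out, the difference lay between -1.12 and -0.88, and the limma adjusted p ran from 0.0501 without Young replicate 2 to 0.0792 without Adult replicate 3. Sample descriptions end in 2 numbers that the labels do not explain, read here as array positions. By the first of them, the difference was -1.25 among arrays numbered 1 and -0.80 among those numbered 2. Bgn belongs to the brightest of the 4 groups by level, in which 18.9% of genes were called lower.

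Marker genes of several cell types moved beside Bgn. Satellite cell markers were negative in 12 of 12 genes, with 6 called lower and a median difference of -0.68. Their summed linear level was 87.1 to 98.6 in Young and 54.5 to 74.0 in Adult. All of them but Myf5 belong to the brightest of the 4 groups by level, where 18.9% of genes were called lower and the median difference was -0.31. Over all genes tested, 8.44% were called lower and 20.0% higher. Itga7, the integrin used in the sort, fell by 1.08 (limma adjusted p = 0.023) and Megf10, a receptor of satellite cells, by 1.04 (0.0262), while Pax7, the transcription factor that defines satellite cells, differed by -0.34 (adjusted p = 0.304). Of the fibroblast and fibro-adipogenic markers, 5 rose and 3 fell among 11 tested. Their median difference was 0.12. Their summed level was 18.9 to 22.6 in Young and 12.1 to 16.3 in Adult, but Thy1, a surface protein of fibroblasts and other cells, gave 46.0% to 78.5% of it and fell by 1.16 (adjusted p = 0.0309). Without Thy1 the sum was 4.70 to 4.92 in Young and 5.72 to 6.89 in Adult. Pi16, a marker of fibroblast progenitors, rose by 1.35 (adjusted p = 0.0332), and Pdgfra, the defining receptor of those cells, was not well above background on any array. The part of these markers in the Bgn result was not tested. In such sorted samples, fewer cells of a type and less RNA per cell cannot be told apart.

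Dcn gave relative levels of 3.14, 3.42 and 2.86 in Young and 2.77, 1.75 and 3.04 in Adult, again in replicate order. Adult replicate 2 was the low sample, and Adult replicate 3 lay inside the Young range. The difference was -0.62 ± 0.38 (SE, 95% interval -1.54 to 0.31, limma adjusted p = 0.232), so neither no change nor a fall as large as that of Bgn lay outside it. Without Adult replicate 2 the difference was -0.23, and when arrays were scaled to their medians it was -1.16 and passed (adjusted p = 0.043). Aspn, an inhibitor of transforming growth factor beta and bone morphogenetic protein action in cartilage and tooth ligament, was well above background in Adult replicate 3 alone, at -4.17. It gave only bounds elsewhere.

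**Figure D2:**
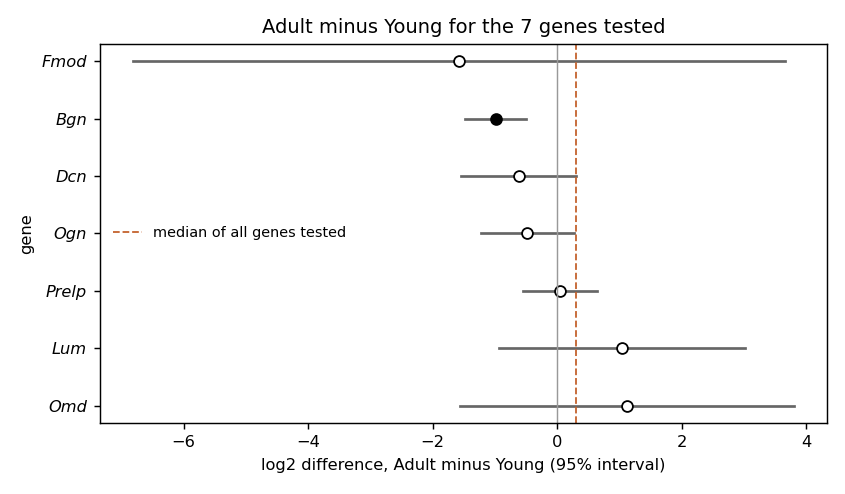
Log2 difference, Adult minus Young (horizontal axis), for the 7 genes tested, as point and 95% interval from limma with 3 samples a group. The filled point passed the adjusted threshold, and the dashed line is the median of all genes tested, 0.30. The interval of Bgn lies wholly below 0, and that of Fmod runs from -6.82 to 3.66.

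Fibromodulin, lumican, keratocan, PRELP and osteomodulin form class II, whose members mostly carry keratan sulfate. Fibromodulin binds type I collagen and is abundant in tendon, where it and biglycan are known to shape the surroundings of tendon progenitor cells. Fmod stood at -5.48, 1.64 and 0.57 in Young and at -4.19, -4.01 and 0.18 in Adult. Young replicates 2 and 3 and Adult replicate 3 formed the high arrays, and the other 3 were dim, with Young replicate 1 not well above background. The processed signals were 12.4, 2066 and 1133 in Young and 29.4, 38.5 and 603.5 in Adult. Over the 5 arrays on which it was well above background, Fmod ranged over 5.83 log2 units or 56.8-fold, where the median range of all genes tested, taken the same way, was 1.26. With Young replicate 1 at the lowest level detected on its array, the range was at least 6.59 log2 units.

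High and low arrays of Fmod occurred in both groups, so its group difference of -1.58 ± 2.15 (SE) had a 95% interval from -6.82 to 3.66 (limma adjusted p = 0.571). With 1 array left out the difference ranged from -3.77 to -0.22. Among arrays with first number 1 the difference was -2.27, and among those with 2 it was -2.48. The second number was 4 on Young replicate 2 and Adult replicate 3, both high, 2 on Young replicate 1 and Adult replicate 2, both dim, and 1 on a high and a dim array. Its part in the Fmod values was not tested.

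Of the 7 genes in the tendon cell list, some were high on some of the same arrays and others were not. Comp, a pentameric matrix protein of tendon and cartilage, gave -4.50, 0.20 and -1.65 in Young and -3.04, -5.18 and -1.67 in Adult, where the value of Adult replicate 2 was not well above background. Of the 17339 genes compared, its pattern was nearest to that of Fmod, with a root mean square difference of 1.33 log2 units after each gene was centred on its own mean, where the deviation of Fmod itself was 2.75. The next were Spag5 at 1.46 and Usp17lb at 1.48, so that none came close. Fmod was not among the genes for which likeness was to be sought, and was added after its values were seen.

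Tnmd, the tendon membrane protein tenomodulin, was well above background in Young replicates 2 and 3, at -2.74 and -3.65, and in no Adult sample, where it gave -6.53, -6.81 and -6.47. Young replicate 1, at -7.11, was not well above background either, so no fold is given for Tnmd. Thbs4, a thrombospondin of tendon and muscle attachment, gave -0.58, 1.39 and -0.38 in Young and -2.12, -3.43 and -0.61 in Adult (adjusted p = 0.0917). Scx, the transcription factor scleraxis of tendon progenitors, had another pattern. It was even across Young, at 1.96, 1.76 and 2.04, and fell by 1.06 to 0.72, 0.74 and 1.12 in Adult (limma adjusted p = 0.0252). Cilp2, a matrix protein, gave -1.65, -1.01 and -1.29 in Young and -1.76, -2.73 and -2.24 in Adult (adjusted p = 0.0688). Mkx, a tendon transcription factor, varied little and differed by 0.30 (adjusted p = 0.274), from -3.37, -3.05 and -3.47 to -2.89, -2.90 and -3.19. In all, 5 of the 7 were tested, 1 fell and none rose. The summed level of the list was 5.02 to 7.92 in Young and 2.09 to 3.49 in Adult, with Scx giving 42.6% to 79.9% of it. Without Scx the groups overlapped, at 1.14 to 4.54 in Young and 0.419 to 1.31 in Adult. Col11a1 was not well above background on any array. The part of tendon cell RNA in the Fmod values was not tested.

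**Figure D3:**
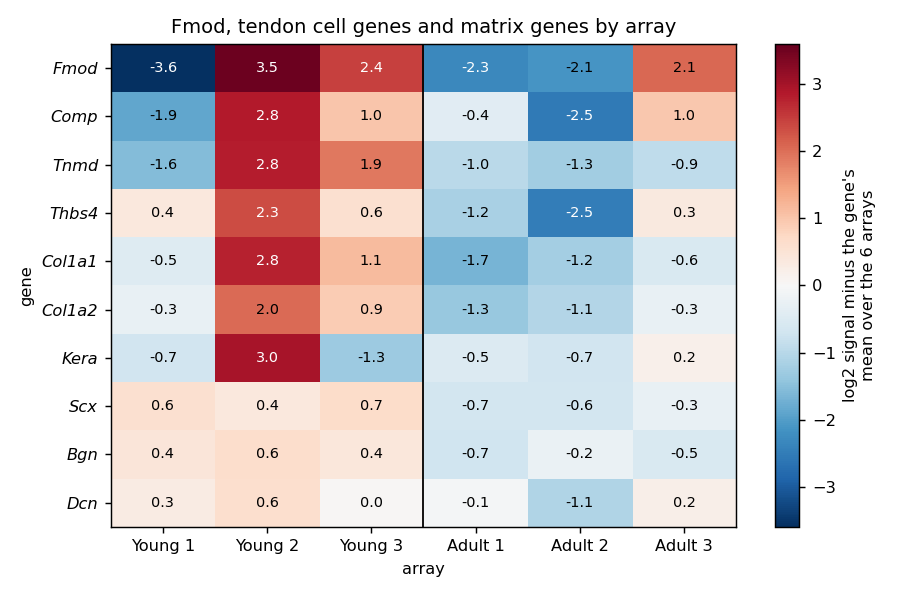
Relative level of 10 genes (rows) on the 6 arrays (columns), each as log2 difference from the mean of that gene over the arrays; red is above and blue below. Fmod, Comp, Tnmd, Thbs4, Col1a1, Col1a2, Kera, Dcn and Bgn were each highest in Young replicate 2, Bgn by little, and Scx was not. Bgn and Scx were even within Young. Values of Tnmd outside Young replicates 2 and 3, of Kera outside Young replicate 2, of Fmod in Young replicate 1 and of Comp in Adult replicate 2 were not well above background.

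Keratocan, known from the cornea and also made in tendon, was detected in a single sample. The Kera probe is printed in 10 spots on every array. In Young replicate 2, the 10 spots read 65.6 to 87.0, with a median of 74.6 and a coefficient of variation of 9.16%, and all 10 were well above background. On the other 5 arrays, the spots read 3.19 to 14.0 and 0 of 10 were well above background on each. The signal was thus repeated across the surface of 1 array, though the spots share 1 RNA sample and are not replicates. Young replicate 2 was also the array on which Fmod, Comp, Tnmd and Col1a1 were highest. In the tendon cell list, Thbs4 and Cilp2 were highest there too, whereas Scx was highest in Young replicate 3 and Mkx in Adult replicate 1. Comp, Thbs4 and Col1a1 were chosen with their values in view. Young replicate 2 is the only sample from mice of 2 months, so that this age and this sample cannot be told apart.

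**Figure D4:**
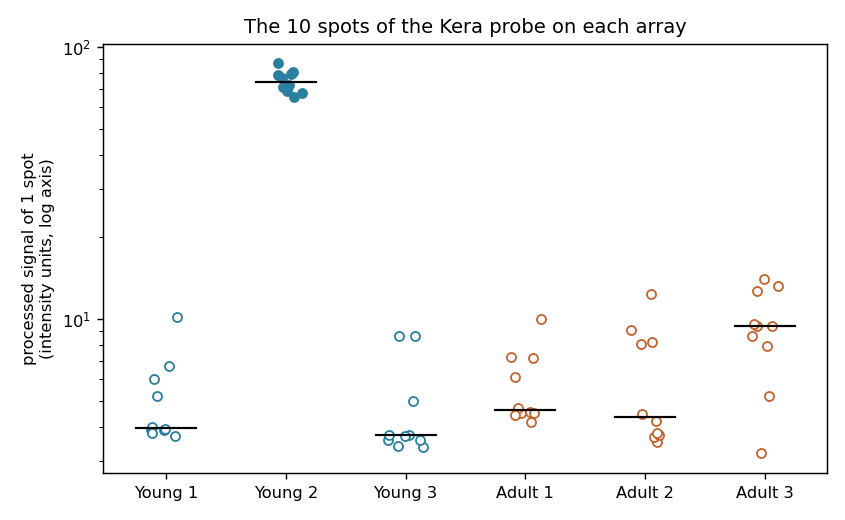
Processed signal of each of the 10 spots of the Kera probe (vertical axis, intensity units, log scale) on each array; bars are medians over spots, and filled points are well above background. The spots of Young replicate 2 lie between 65.6 and 87.0, and all others between 3.19 and 14.0.

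Lumican, a keratan sulfate proteoglycan of cornea, skin and muscle connective tissue, was dim. Lum gave -7.23, -4.49 and -4.19 in Young, of which the first was not well above background, and -4.12, -4.12 and -4.56 in Adult. Over the 5 arrays well above background it ranged over 0.44 log2 units, and Young replicate 1 stood below them. The group difference was 1.04 ± 0.81 (SE, limma adjusted p = 0.332), and 0.08 without that array. Omd, which encodes the bone proteoglycan osteomodulin, had the same kind of gap in another sample. It stood at -4.41, -3.44 and -7.76 in Young, the last not well above background, and at -3.53, -4.54 and -4.18 in Adult. Its difference was 1.12 ± 1.10 (SE, adjusted p = 0.437), and -0.16 without Young replicate 3. Both differences were also negative under some other scalings.

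Prelp encodes a member that carries no such chains as a rule and binds basement membrane perlecan and collagen. It was the steadiest, at 0.13, 0.21 and 0.42 in Young and 0.68, 0.25 and -0.05 in Adult. It ranged over 0.73 log2 units, against a median of 1.26. The difference was 0.04 ± 0.24 (SE, limma adjusted p = 0.908), and its 95% interval of -0.56 to 0.63 leaves out a change of the size of Bgn in either direction. The Prelp probe stands for a cDNA clone, AK037150, at chr1:135806855-135806914 on the minus strand.

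Osteoglycin and epiphycan are class III members. Osteoglycin, also called mimecan, is secreted by many connective tissues and by muscle cells. Ogn stood at 2.40, 2.38 and 2.75 in Young and at 2.42, 2.24 and 1.44 in Adult. The groups overlapped, and Adult replicate 3 was the low sample. Its difference was -0.48 ± 0.31 (SE, 95% interval -1.23 to 0.27, limma adjusted p = 0.249), and -0.18 with that sample left out. Epyc, which encodes a growth plate cartilage proteoglycan, was well above background in Adult replicate 2 alone, at -4.22. The other Adult samples gave -5.58 and -5.61, and the Young ones -7.02, -7.59 and -7.75. Since the Young values and those of these other Adult samples were not well above background, no fold is given for Epyc.

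Most of these genes lie in 3 clusters in the mouse genome. In the GRCm38.p6 gene order, Dcn, Lum, Kera and Epyc follow each other on chromosome 10, Aspn, Omd and Ogn stand beside Ecm2 on chromosome 13, and Prelp and Fmod stand beside Optc on chromosome 1. Neighbours differed in how many arrays detected them. On chromosome 10, Dcn was well above background on all 6 arrays, Lum on 5, and Kera and Epyc on 1 each. On chromosome 1, Prelp was well above background on 6 arrays and Fmod on 5. On chromosome 13, Ogn was well above background on 6 arrays, Omd on 5 and Aspn on 1.

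The genes nearest to the members in pattern were sought for the 4 members well above background on all arrays. For Bgn they were Lgals1, Elob and Cmas, with root mean square differences of 0.0548, 0.0555 and 0.0597 log2 units, against a deviation of Bgn itself of 0.518. Lgals1, which encodes the secreted lectin galectin-1, fell by 1.08 (limma adjusted p = 0.025), Elob by 0.89 (0.031) and Cmas by 0.95 (0.0273). For Ogn they were Dtnbp1, Tfam and Sft2d2, at 0.0302 to 0.0562, and for Prelp Znfx1, Ddx3y and Rpl4, at 0.0601 to 0.0767. With 6 arrays and 17339 genes compared, close patterns are easily found.

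Other genes of the same pathway were taken in lists. Each count below is to be read against 8.44% of all genes lower and 20.0% higher. Level matters too, since 18.9% of the brightest of the 4 groups were called lower. The median difference was 1.44 in the dimmest group and -0.31 in the brightest. Of the pathway genes called lower, only Chst7, Ccn4, Met and Mmp14 lay outside the brightest group. Of those called higher, only Chst1 and Gpc5 lay outside the 2 dimmest groups. Of 7 tested among related leucine-rich genes outside the 10, 2 rose and none fell, with a median difference of 0.53. Both that rose are neighbours of members. Ecm2, the neighbour of Aspn, was not well above background in Young and entered the test through Adult alone. Its Adult mean was at least 3.40-fold that in Young. The test of Ecm2 used background readings for Young (limma adjusted p = 0.0224). Optc, which encodes opticin and stands beside Prelp, was -5.64, -4.07 and -4.14 in Young and -1.91, -2.85 and -2.43 in Adult, a rise of 2.22 ± 0.50 (SE, adjusted p = 0.0306). Ecm2 and Optc both belong to the dimmest of the 4 groups by level, whose median difference was 1.44. Neither rise passed with quantile normalization, cyclic loess or the series matrix values. Quantile normalization gave 0.47 for Ecm2 (adjusted p = 0.339) and 1.22 for Optc (0.098), and the series matrix values gave 0.18 (0.41) and 0.50 (0.117). Tsku, a secreted inhibitor of Wnt and other signals, differed by 0.61 (adjusted p = 0.0623). For Chadl the 2 probes disagreed, with -0.62 and 0.64.

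Enzymes that build the sugar chains changed in both directions. Of 6 linker enzymes tested, Xylt1, the xylosyltransferase that starts a chain, rose by 0.97 (limma adjusted p = 0.0445), and Fam20b, the kinase that phosphorylates that xylose, fell by 0.79 (0.0357). Xylt2 and B4galt7 did not pass, at -0.62 and 0.57. Of 15 chondroitin and dermatan sulfate enzymes tested, 1 rose and 1 fell. Chsy3, a chondroitin synthase, was not well above background in Young and entered the test through Adult alone. Its Adult mean was at least 2.67-fold that in Young. The test of Chsy3 used background readings for Young (limma adjusted p = 0.00897), and with the series matrix values it did not pass, at 0.43 (0.0918). Chst7, a chondroitin sulfotransferase, fell by 0.81 (0.0384). Chst14, which sulfates dermatan chains such as those of decorin and biglycan, differed by -0.57 (0.0593), and Chst15 by 0.72 (0.0533).

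Of 6 keratan sulfate enzymes tested, Chst1, a keratan sulfate sulfotransferase, rose by 1.80 ± 0.33 (SE, limma adjusted p = 0.0238). B4galt1, a galactosyltransferase of many glycans, fell by 1.71 ± 0.18 (SE, adjusted p = 0.0113), from 1.75, 1.46 and 1.68 in Young to -0.05, 0.02 and -0.20 in Adult. The other 4 did not pass, among them Chst2 at 0.98 and Chst4 at 1.30, and the median of the list was 0.87.

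The collagens and lysyl oxidases whose fibrils the family binds had the lowest median of the pathway lists, -0.79 over 13 genes tested, of which 4 fell and 2 rose. Col5a1, a chain of the collagen that starts fibrils, fell by 1.05 (limma adjusted p = 0.0257), Col6a1, of the beaded collagen that binds biglycan, by 0.97 (0.026), and Col3a1 by 1.13 (0.0366). Among crosslinking enzymes, Loxl1 fell by 1.09 (0.0424), whereas Loxl4 rose by 1.25 (0.0267) and Loxl3 by 0.98 (0.0497). The rise of Loxl3 turned to -0.44 under quantile normalization. Col1a1 and Col1a2, the chains of type I collagen that fibromodulin and decorin bind, showed the array pattern of Fmod in part. Col1a1 stood at -0.33, 2.90 and 1.27 in Young and -1.55, -1.10 and -0.43 in Adult, and did not pass (adjusted p = 0.0752). Col1a2 was 2.72, 5.03 and 3.90 in Young and 1.64, 1.93 and 2.71 in Adult (adjusted p = 0.0714).

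**Figure D5:**
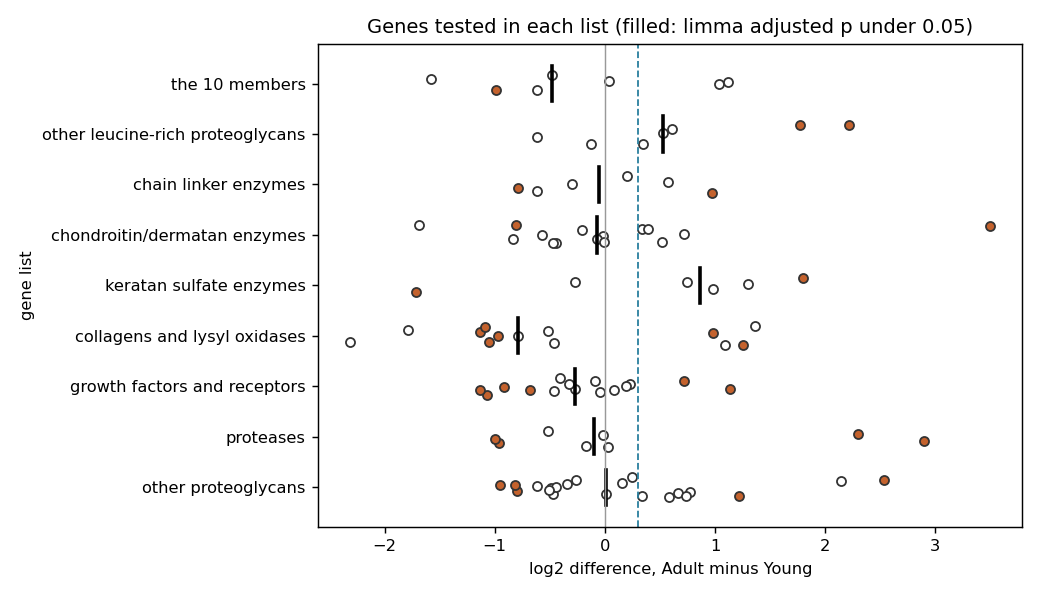
Log2 difference, Adult minus Young (horizontal axis), of every gene tested in the 9 lists (rows), with 3 samples a group; filled points passed the limma adjusted threshold, black bars are list medians and the dashed line is the median of all genes, 0.30. The collagen list has its median at -0.79 and the keratan sulfate list at 0.87.

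Of 15 growth factors and receptors that bind members, 4 fell and 2 rose. Tgfb2 and Tgfb3, ligands that decorin and biglycan can hold, fell by 1.07 (limma adjusted p = 0.0301) and 0.92 (0.033). Ccn4, a secreted Wnt target that binds both proteoglycans, fell by 1.13 (0.0203), and Met, a receptor to which decorin binds, by 0.68 (0.037). Cd14, a co-receptor for biglycan at Toll-like receptors, rose by 1.14 (0.0232), and Bmp2 by 0.72 (0.0424). Under quantile normalization neither passed, with Cd14 at 0.33 (adjusted p = 0.174) and Bmp2 at 0.27 (0.383), and with the series matrix values Cd14 was at 0.11 (0.602). Mstn, the gene of myostatin, which decorin also binds, was not well above background on any array. Markers of leukocytes, which express Cd14, were positive in 9 of 9 genes, with 3 called higher. All but Itgam and Csf1r belong to the 2 dimmest of the 4 groups by level, whose median differences were 1.44 and 0.55. Ptprc and Itgam turned negative when arrays were scaled to their medians, at -0.051 and -0.15. Tyrobp, a myeloid adaptor, was not well above background in any Young sample and entered the test through Adult alone. Its Adult mean was at least 31.2 times the Young mean. The test of Tyrobp used background readings for Young (limma adjusted p = 0.0157). Adgre1, the macrophage marker F4/80, rose by 2.32 (0.0262). The summed level of the list was 219.0 to 425.0 in Young and 378.0 to 402.0 in Adult, of which Itgam gave 95.9% to 97.7%. Without Itgam it was 7.77 to 9.60 in Young and 12.2 to 13.5 in Adult. The part of these markers in the Cd14 result was not tested.

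Of 8 proteases tested that cut members or their precursors, Mmp2 fell by 0.96 (limma adjusted p = 0.0292) and Mmp14, the membrane protease that activates it, fell from 0.22, 0.75 and 0.41 to -0.82, -0.32 and -0.48 (0.033). Mmp3 rose by 2.30 (0.0202), with 1 of 3 Young samples well above background. Mmp13, with none, entered the test through Adult alone and was at least 1.79-fold higher. The test of Mmp13 used background readings for Young (limma adjusted p = 0.00851). Of 21 other proteoglycans tested, 3 fell and 2 rose. The basement membrane proteoglycans Hspg2 (perlecan) and Col18a1 fell by 0.80 (0.0365) and 0.82 (0.0368), and the glypican Gpc1 by 0.95 (0.0288), while Ncan rose by 2.53 (0.0275) and Gpc5 by 1.22 (0.0369).

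Markers of other cell types that the sort could hold were counted as well. Of endothelial markers, Flt1 rose by 0.94 (limma adjusted p = 0.0266), and Cldn5 did not pass, at 1.03 (0.112). These were the only 2 positive of 8 tested, with 6 negative and a list median of -0.22. Of mural markers, Kcnj8, a channel of pericytes, rose by 3.58 (0.0122) and Acta2, smooth muscle actin, fell by 2.10 (0.00919). In all, 4 of 8 mural markers were called higher and Acta2 alone lower, with a median of 1.24. Of myofibre markers, Atp2a1 fell by 1.09 (0.0276) and Myh1 by 2.07 (0.0319), the latter with 1 of 3 Adult samples well above background. Among the 8 myofibre markers tested, 1 was called higher and 3 lower, 4 were positive and 4 negative, and the median was 0.11. Of Schwann cell markers, Ngfr fell by 1.09 (0.026). Cartilage and bone markers did not pass, Matn3 at 1.84 (0.0516) and Bglap at 1.74 (0.086) included. The part of these cell types in the values of the 10 genes was not tested.

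Calls at this size of study were sensitive to single samples. Of 46 genes called here by name, Bgn among them, 27 were also called under quantile normalization, and 4, Acta2, B4galt1, Chsy3 and Mmp13, with each array left out in turn. Of these 4, Chsy3 and Mmp13 were not well above background in any Young sample, so that their Young values are background readings. Neither passed with the series matrix values, at 0.43 (limma adjusted p = 0.0918) for Chsy3 and 0.22 (0.288) for Mmp13. The 19 called genes that did not pass under quantile normalization were Ecm2, Optc, Fam20b, Xylt1, Loxl1, Loxl3, Loxl4, Cd14, Bmp2, Tgfb3, Mmp2, Mmp3, Mmp13, Ncan, Gpc1, Gpc5, Col18a1, Pi16 and Elob (adjusted p = 0.05 to 0.383). Among them, the values of Xylt1 (0.40), Mmp3 (1.06) and Mmp13 (1.06) were also much smaller there.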

How the data were processed

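Satellite cells of 3 Young and 3 Adult samples were each read on 1 Agilent array of 62976 spots. The deposited intensity values, made per the file headers with Feature Extraction version 10.7.3.1, were the processed signal, mean signal and local background of each spot. The deposited series matrix held log2 values, with a median of 7.56 on each array. They matched normexp correction (offset 50) with quantile normalization of those intensities to within 0.000106, which settles their scale, centring and direction. All arrays lay on 1 slide and shared 1 scan time.

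Control spots (3671) and outlier spots were dropped, 0 spots were saturated, and averaging the spots of a probe gave 55681 probes. Values were log2 processed signal less the 75th percentile of the array. A probe was tested if well above background on 3 or more arrays, and each gene was given its brightest probe. Symbols follow the GRCm38.p6 table by accession for 26300 probes, by current symbol for 2044 and by older symbol for 355, and 26982 probes keep their file names. The test was lmFit and eBayes of limma 3.58.1 (R 4.3.3), Adult minus Young, with Benjamini-Hochberg adjustment over 32068 genes and a threshold of 0.05. Adjusted p-values printed alone in parentheses are from this fit. Files were read with data.table, version 1.17.8. The fit was tested on simulated arrays. The number of arrays limits the precision.

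"At least" folds apply where a group had no sample well above background. There the dim group's value on an array is the probe's own signal or the lowest signal of any probe well above background, whichever is larger, and the fold is between the group means. Summed levels add linear signals relative to the 75th percentile over a list.

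The members and gene lists were chosen with earlier results of these data known. Named were all 10 members, up to 4 genes with the smallest p of each pathway list, and defining markers with up to 2 of the smallest p of each marker list. Col1a1, Col1a2, Loxl1, Loxl3, Met, Bmp2, Gpc5, Thbs4, Comp, Col11a1, Mstn and the neighbours of Fmod in pattern were chosen with their values in view. The genes nearest to Dcn in pattern are not reported here. Tried besides were other scalings and background corrections, filters, probe choices, variance models, array weights, blocks by array position or replicate number, and each array left out. Calls in the remaining marker lists are given as rises, falls and genes tested. They were 1, 0 and 8 for endothelial cells, 4, 1 and 8 for mural cells and 1, 3 and 8 for myofibres. Schwann cells gave 0, 1 and 6, and cartilage and bone cells 0, 0 and 7.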

Additional observations from a re-analysis of the deposited data

How the results depend on the processing

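Bgn kept its direction under all 19 alternatives (-1.53 to -0.79) and its call under 12, with a limma adjusted p of 0.00634 to 0.0792 over all. Leaving out 1 array ended the call each time (-1.12 to -0.88). Members called numbered 2 with median scaling (Bgn and Dcn) and without a filter (Bgn and Epyc, whose Young values are background readings), and 0 without any 1 array. Genes called numbered 9134, of which 6426 were higher and 2708 lower in Adult. Quantile normalization gave 5617 (2867 higher, 2750 lower), cyclic loess 5273 (3128 and 2145), median scaling 12254 (3445 and 8809), the percentile over detected probes 9671 (7887 and 1784), normexp 12723 (8615 and 4108) and the series matrix 8511 (4422 and 4089). Trended and robust variance gave 4431 lower and the array position block 5954, of which 1200 were lower. With 1 array left out, counts ran from 297 to 7680 (275 to 6420 higher, 22 to 1260 lower), and were lowest without Adult replicate 3. They were 1358 without Young replicate 1, 2378 without Young replicate 3, 483 without Adult replicate 1 and 770 without Adult replicate 2.

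Samples with 1 replicate number in common showed no pairing in their values, where their deviations from the group means had correlations of -0.0023, -0.093 and -0.14. With 3 samples a group, such correlations cannot exclude a pairing. The fit with the replicate block called 0 genes, 0 of them higher, 0 lower and 0 members (limma, 12724 at an unadjusted p under 0.05), and Bgn had -0.99 (adjusted p = 0.0731).

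Of 75 genes examined, 10 had a difference of the other sign under some alternative, none of them called there. These were Lum (series matrix -0.092, loess -0.16), Prelp (median scaling -0.50, normexp -0.031, 1 array left out -0.15 to 0.21), Omd (quantile -0.21, matrix -0.18, loess -0.089, 1 array left out -0.16 to 2.00), Chadl (mean of probes 0.011), B4galt7 (quantile -0.28, matrix -0.086, loess -0.19) and Loxl3 (quantile -0.44, matrix -0.031, loess -0.24). They were also Ly6a (quantile -0.33, median scaling -0.42, matrix -0.080, loess -0.19, array weights -0.42, 1 array left out -0.48 to 0.96), Cd34 (quantile 0.045, matrix 0.047, loess 0.072), Ptprc (quantile -0.17, median scaling -0.051, loess -0.043) and Itgam (median scaling -0.15). The causes were not tested. A slide block was not run, with 1 slide. Signal over background limits Lum, Omd, Aspn, Kera and Epyc, whose values lie near the dimmest probes detected.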
